A study of Mus musculus with 6 samples.

Results

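Immediate early response genes are described here in hearts of mouse embryos late in gestation (E18.5) with and without Gas2l3. They were chosen by symbol, as 10 genes of the AP-1, EGR, NR4A and IER families: Fos, Fosb, Jun, Junb, Jund, Atf3, Egr1, Nr4a1, Ier2 and Ier3. All 10 were among the 24421 genes of the deposited table, and 9 reached 1 FPKM (fragments per kilobase of transcript, scaled for library size) in at least 3 libraries and were tested. Fosb did not. The study sequenced poly(A) RNA of 3 wildtype and 3 Gas2l3 -/- heart samples, all of strain C57/Bl6 at the same stage and without any treatment named in the labels. The labels do not say whether a library came from 1 embryo or several, which part of Gas2l3 was removed, or whether the deletion was in all cells, and a p-value then covers only how far these libraries vary. Libraries are named by genotype label and replicate number, WT1 to WT3 and KO1 to KO3, and every direction is drawn from those labels.

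Immediate early genes are switched on in resting cells within minutes of a growth factor, stretch, stress or handling of the tissue, without any new protein being made first. Signals through MAP kinases reach factors already bound at their promoters, such as SRF with its ELK partners and CREB, and the short-lived messenger RNAs soon fall again. Most of their products are transcription factors: FOS and JUN proteins pair through leucine zippers to form AP-1, ATF3 pairs with JUN proteins and often represses, EGR1 is a zinc finger factor and NR4A1 an orphan nuclear receptor. In the heart they are known as early markers of load on the muscle and of injury.

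Upstream sequences of 4 of the genes are given first, because these 4 stand for the patterns described below: the means of Fos and Atf3 lay in opposite directions between the groups, and Junb and Ier3 were set apart by 1 library. Each run is the 250 bases before the RefSeq start site, on build GRCm38.p6 and on the strand of the gene. Capitals mark the motifs named after the sequences. The Atf3 start site in RefSeq lies inside the longer span of the gene in the GENCODE annotation.
Fos, chr12:85473640-85473889 on the plus strand: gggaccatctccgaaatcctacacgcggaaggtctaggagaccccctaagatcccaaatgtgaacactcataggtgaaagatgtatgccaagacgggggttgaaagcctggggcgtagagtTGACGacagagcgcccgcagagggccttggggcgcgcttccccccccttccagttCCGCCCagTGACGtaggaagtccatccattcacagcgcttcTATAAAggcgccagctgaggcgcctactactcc
Junb, chr8:84978749-84978998 on the minus strand: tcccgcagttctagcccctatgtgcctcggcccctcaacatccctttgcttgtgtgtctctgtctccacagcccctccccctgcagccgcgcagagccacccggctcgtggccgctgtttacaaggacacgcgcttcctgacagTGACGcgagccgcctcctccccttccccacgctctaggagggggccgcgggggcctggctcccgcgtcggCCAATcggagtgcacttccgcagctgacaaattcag
Ier3, chr17:35821463-35821712 on the plus strand: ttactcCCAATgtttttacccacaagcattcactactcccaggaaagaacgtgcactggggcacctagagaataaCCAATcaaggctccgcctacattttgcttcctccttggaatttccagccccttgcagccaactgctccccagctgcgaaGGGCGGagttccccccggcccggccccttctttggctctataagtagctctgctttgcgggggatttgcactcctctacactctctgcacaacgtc
Atf3, chr1:191183334-191183583 on the minus strand: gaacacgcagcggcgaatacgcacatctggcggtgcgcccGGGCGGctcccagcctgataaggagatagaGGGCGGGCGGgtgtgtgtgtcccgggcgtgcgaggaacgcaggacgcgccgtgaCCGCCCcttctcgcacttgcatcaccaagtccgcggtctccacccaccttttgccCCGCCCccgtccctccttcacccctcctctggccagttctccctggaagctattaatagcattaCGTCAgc

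RefSeq held a promoter for 8 of the 10 genes. Egr1 and Ier2 had no entry. Motifs were searched on both strands of the 250 bases, and shares are over 32536 different windows of that length. The half-site of the cyclic AMP response element, TGACG, was found in 5 of the 8 genes and in 17.9% of all windows. Fos held it 2 times, with 1 copy 66 bases before the start site, and Atf3 held it on the opposite strand 7 bases before the start. The Sp1 motif GGGCGG was found in 6 of 8 genes and 33.0% of windows, with 5 matches in Atf3, a pair of which overlap. The CCAAT box was found in 3 of 8 genes and 33.8% of windows, and the TATA box TATAAA in Fos alone of the 8 and in 12.3% of windows. The EGR motif GCGNGGGCG was found in 2 of the 8, Fosb and Nr4a1, and in 4.74% of windows, where it overlaps the Sp1 motif. The AP-1 motif TGANTCA and the CArG box, the SRF site by its name, were found in 0 of the 8 windows, against 6.73% and 1.48% of all windows. Bases farther upstream were not searched, so this does not show that the genes lack such sites.

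As labelled, the libraries held 3414257 to 7732674 reads. Cardiomyocyte markers such as Myh6 and Tnnt2 were all above the minimum in expression, 12 of 12, with summed levels of 41080 to 77010 FPKM in the wildtype and 37610 to 46220 FPKM in the knockout libraries. Their means were lower in the knockout group for 11 of 12 (median log2 fold change -0.45), for 10 without WT3 (-0.17) and for 9 with trends removed (-0.31), and their part in the results below was not tested. Gas2l3 itself was at 10.3, 4.12 and 2.48 FPKM in WT1, WT2 and WT3 and at 4.03, 2.99 and 3.06 FPKM in KO1, KO2 and KO3, so the groups overlapped through WT3 alone. Without WT3, and with GC content and length trends removed (log2 fold change -0.65, SE 0.23, limma adjusted p = 0.563), each wildtype value lay above each knockout value. Since the deleted part is not given in the labels, this does not check the genotype. WT3 stood apart from the other libraries. Its mean correlation with the others over the tested genes was 0.899, against 0.935 to 0.957, and its deviations from the gene means rose with the GC content of the transcript (r = 0.703 across genes, which are not independent). Other libraries held trends too. With GC content, r was -0.477 in WT1, -0.483 in KO1 and from -0.161 to -0.0716 in WT2, KO2 and KO3. With log length, r ran from -0.415 in KO2 and -0.314 in WT2 to 0.341 in KO1 and 0.357 in WT1. Values without WT3 still hold these trends. They are given below for the early genes and for their relatives.

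No immediate early gene was called between the groups. Of the 9 tested, 0 were called at an adjusted p under 0.05 by limma, where 0% of 12121 genes were called higher and 0% lower. Unadjusted, 1 of the 9, Atf3, had a p under 0.05, beside 1.35% of all tested genes lower and 1.90% higher. Voom on reads recovered from the values also called 0 genes, with 375 at an unadjusted p under 0.05; 1 of the 9 was among them. In the authors' deposited table Fosb was marked Low and had no adjusted p, and none of the other 9 was called. There, 0.0572% of 12243 genes were called higher and 0.0163% lower. The median log2 fold change of the 9 genes, knockout over wildtype, was -0.24, beside -0.0089 for all tested genes. Means were higher in the knockout hearts for 2 genes and lower for 7, but without WT3 they were higher for 5 and lower for 4. In that fit Atf3 and Egr1, 2 of 9, had an unadjusted p under 0.05, beside 4.44% of all tested genes in either direction.

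**Figure D1:**
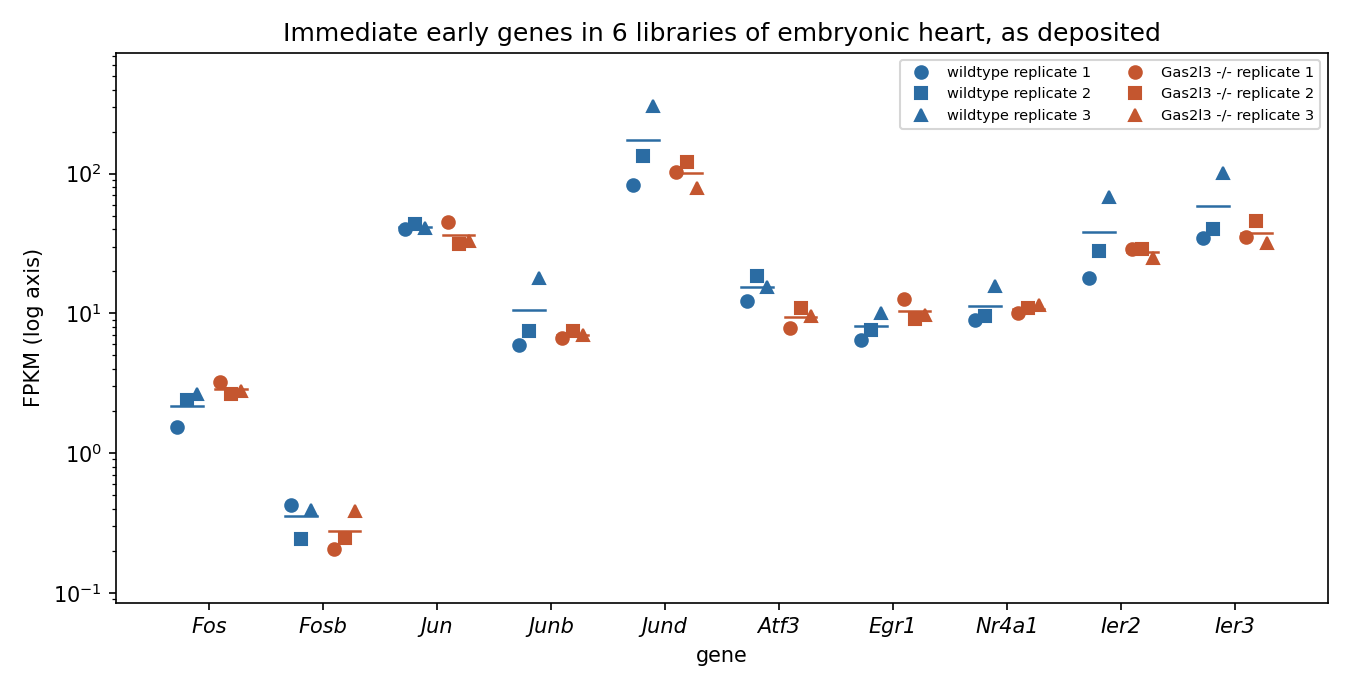
FPKM of the 10 genes in each library, on a log axis, with wildtype libraries in blue, knockout libraries in orange, a marker shape for each replicate number and a line at each group mean. Jund is the most abundant, Fosb the least, and WT3 (blue triangle) lies well above the rest for Junb, Jund, Ier2 and Ier3.

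Levels differed widely between the genes. FPKM allows for length but not for GC content, so a comparison of genes within a library still carries its GC trend. Jund led with a mean of 137 FPKM over the 6 libraries, and 5.14% of tested genes had a higher mean level on the log2 scale. Ier3 (48.2 FPKM), Jun (38.9 FPKM) and Ier2 (32.8 FPKM) followed, and these 3 neighbours overlapped in their ranges over the libraries. Atf3 (12.5 FPKM), Nr4a1 (11.1 FPKM), Egr1 (9.27 FPKM) and Junb (8.75 FPKM) formed a middle group whose ranges also overlapped. Fos was low at 2.54 FPKM, with 85.0% of tested genes above it, and Fosb was lowest at 0.315 FPKM. The ranges of Jund and Fos did not overlap those of any other of the 10 genes except for Jund and Ier3, since Ier3 reached 102 FPKM in WT3. JUN genes thus outweighed FOS genes in each library: summed Jun, Junb and Jund stood at 66.0, 70.1 and 119 times summed Fos and Fosb in WT1, WT2 and WT3, and at 44.7, 55.4 and 37.7 times in KO1, KO2 and KO3. The groups did not overlap in this ratio, which was chosen after the values were seen and has no test. It was taken from the values as deposited and not with trends removed. Fos in it rested on 12 to 44 reads per library. Jund, the member of highest GC content, made up 64.4% to 83.8% of the JUN sum, with the top value in WT3.

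Atf3 was the gene with the clearest difference, lower in the knockout hearts, though not called. It encodes a stress-induced factor of the ATF family and lies on chromosome 1 (191170296 to 191218039, minus strand, GRCm38, 4 exons in its longest transcript). It stood at 12.3, 18.6 and 15.4 FPKM in WT1, WT2 and WT3 and at 7.90, 11.0 and 9.58 FPKM in KO1, KO2 and KO3. Every knockout library lay below every wildtype one, as was so for 4.74% of all tested genes. Group means were 15.4 ± 3.17 and 9.48 ± 1.54 FPKM (SD, n = 3), or -0.67 on the log2 scale (SE 0.26, 95% confidence interval -1.26 to -0.072, adjusted p = 0.966, limma). In the authors' deposited table it was at -0.55 (SE 0.26, p = 0.0337, adjusted p = 0.998). Without WT3 the log2 fold change was -0.66 (adjusted p = 0.9999, limma). After GC content and length trends were taken out of each library, it was -0.62 (SE 0.18, adjusted p = 0.461), and the groups stayed apart. An exact permutation test of 3 against 3 libraries cannot go below a two-sided p of 0.1. Reads behind these values numbered 91 to 280 per library.

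Mean levels of Egr1 and Fos were higher in the knockout group, also without a call. Egr1, a zinc finger factor of the growth response, stood at 6.40, 7.64 and 10.1 FPKM in WT1, WT2 and WT3 and at 12.6, 9.10 and 9.73 FPKM in KO1, KO2 and KO3. WT3 reached into the range of the other group, and the other wildtype libraries lay below it. The log2 fold change was 0.37 (SE 0.26, 95% confidence interval -0.23 to 0.97, adjusted p = 0.966, limma), 0.54 without WT3 (SE 0.21, adjusted p = 0.9999), 0.23 without WT1 and 0.23 without KO1. With GC content and length trends removed it was 0.59 (SE 0.20, 95% confidence interval 0.13 to 1.05, adjusted p = 0.541), and the groups no longer overlapped, as was so for 6.64% of genes in the same direction. As deposited, WT3 exceeded the mean of the other 5 libraries by only 0.18 on the log2 scale. The median of tested genes with 55.0% to 57.5% GC content was 0.85. Taking the trends out put WT3 0.62 below the other 5 for Egr1, and the end of the overlap rests on that shift.

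Fos, the founding member of its family (chromosome 12, 85473890 to 85477273, plus strand, 4 exons), stood at 1.53, 2.38 and 2.66 FPKM in WT1, WT2 and WT3. In KO1, KO2 and KO3 it was at 3.25, 2.66 and 2.76 FPKM. WT3 lay just above KO2, so the groups met at 1 point. These levels rest on 12 to 44 reads per library, and counting error alone gives an SD of 0.22 per library on the scale of the fit, beside 0.26 observed within groups. The log2 fold change was 0.35 (SE 0.28, 95% confidence interval -0.27 to 0.98, adjusted p = 0.966, limma). It was 0.16 without WT1 and 0.48 without WT3. With trends removed it was 0.39 (SE 0.21, adjusted p = 0.699), with no overlap between the groups. Fosb (chromosome 7, 19302696 to 19310051) had 5 to 10 reads per library and 0.204 to 0.423 FPKM. In a fit without a minimum it was at -0.13 (SE 0.16, adjusted p = 0.944, limma), and counting error alone gives an SD of 0.21 per library, beside 0.17 observed.

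Junb, Jund and Ier2 shared 1 pattern across libraries, in which WT3 was the highest by far. Jund (chromosome 8, 70698949 to 70700616, plus strand), the JUN protein that resting cells hold, stood at 82.8, 133 and 304 FPKM in WT1, WT2 and WT3. In KO1, KO2 and KO3 it stood at 103, 122 and 78.4 FPKM, with KO1 and KO2 inside the range of the other group and KO3 just below it. Junb (chromosome 8, 84974484 to 84978718, minus strand), an inducible JUN protein, was at 5.92, 7.48 and 18.1 FPKM against 6.62, 7.44 and 6.98 FPKM. Ier2 (chromosome 8, 84661331 to 84662852, minus strand), a small nuclear protein induced by growth factors, was at 18.0, 28.0 and 68.3 FPKM against 29.0, 29.0 and 24.8 FPKM. WT3 thus held the highest value of each of the 3, and WT1 the lowest of Junb and Ier2.

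Log2 fold changes of these 3 genes followed that library. Jund was at -0.59 (SE 0.47), Junb at -0.39 (SE 0.39) and Ier2 at -0.24 (SE 0.45), each with an adjusted p of 0.966 by limma. Without WT3 they were at -0.080 (SE 0.30), 0.068 (SE 0.19) and 0.29 (SE 0.23), so Junb and Ier2 turned in direction. Without WT1 they were at -1.01, -0.70 and -0.66. Each is a gene of 1 exon and among the tested genes richest in GC: 67.1% for Jund, 62.6% for Junb and 60.9% for Ier2. At or above these stood 0.191%, 1.33% and 2.89% of tested genes. WT3 exceeded the mean of the other 5 libraries by 1.58, 1.33 and 1.41 on the log2 scale for Jund, Junb and Ier2. Tested genes in the same GC bins had medians of 1.47 (33 genes of 65.0% to 67.5%), 1.27 (116 genes of 62.5% to 65.0%) and 1.21 (375 genes in the bin below, up to 62.5%). Once GC content and length trends were taken out, the excess was 0.31, 0.13 and 0.26.

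**Figure D2:**
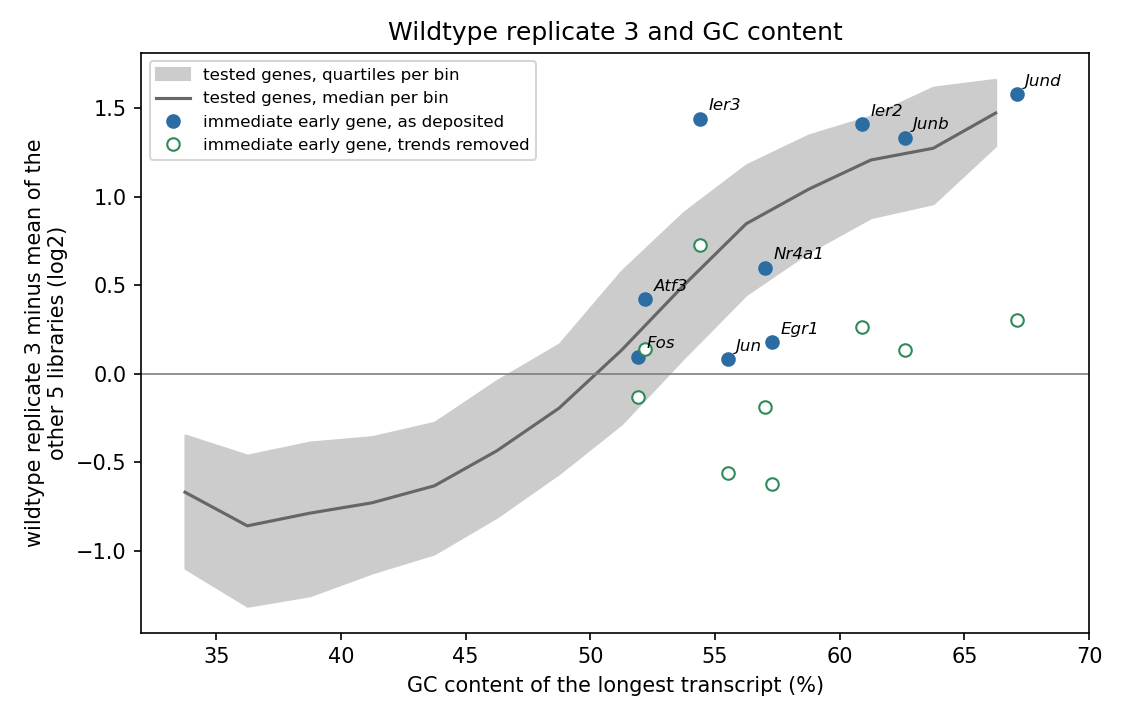
Level in WT3 minus the mean of the other 5 libraries (log2) against GC content of the longest transcript, with the median and quartiles of tested genes in bins of 2.5 points (grey) and the 9 genes as deposited (filled) and with trends removed (open). Jund, Junb and Ier2 lie near the grey curve at 1.58, 1.33 and 1.41, Ier3 lies above it and Jun and Egr1 below.

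Ier3 shared the high library but not the GC content. It encodes a membrane-anchored regulator of cell survival (chromosome 17, 35821684 to 35822923, plus strand, 2 exons) and has a GC content of 54.4%. It stood at 34.7, 39.9 and 102 FPKM in WT1, WT2 and WT3 and at 35.1, 46.1 and 31.7 FPKM in KO1, KO2 and KO3. The log2 fold change was -0.48 (SE 0.42, 95% confidence interval -1.44 to 0.48, adjusted p = 0.966, limma), -7.13e-04 without WT3 and -0.77 without WT1. That library exceeded the mean of the other 5 by 1.44 on the log2 scale, while the median of the 1631 tested genes with 52.5% to 55.0% GC content was 0.50. With trends removed the excess was still 0.73, which 9.24% of genes matched or passed.

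As deposited, Jun and Nr4a1 had the smallest differences between group means on the log2 scale among the 9, an order that did not hold without WT3 or with trends removed. Jun (chromosome 4, 95049034 to 95052222, minus strand, 1 exon), the main inducible partner of FOS, was at 39.9, 43.6 and 40.5 FPKM in WT1, WT2 and WT3 and at 44.9, 31.5 and 33.0 FPKM in KO1, KO2 and KO3. KO1 was the highest of all 6 and the other 2 the lowest. Its log2 fold change was -0.20 (SE 0.26, 95% confidence interval -0.79 to 0.40, adjusted p = 0.966, limma), and ran from -0.35 without KO1 to -0.10 without KO2. With a GC content of 55.5%, Jun did not follow the trend of WT3, and taking the trend out put that library 0.56 below the other 5 on the log2 scale and widened its spread within groups from 0.20 to 0.37. Nr4a1 (chromosome 15, 101254269 to 101274795, plus strand, 8 exons) was at 8.93, 9.55 and 15.6 FPKM against 10.1, 10.9 and 11.5 FPKM. Its log2 fold change was -0.029 (SE 0.27, 95% confidence interval -0.66 to 0.60, adjusted p = 0.992, limma), 0.21 without WT3 and -0.17 without WT1.

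**Figure D3:**
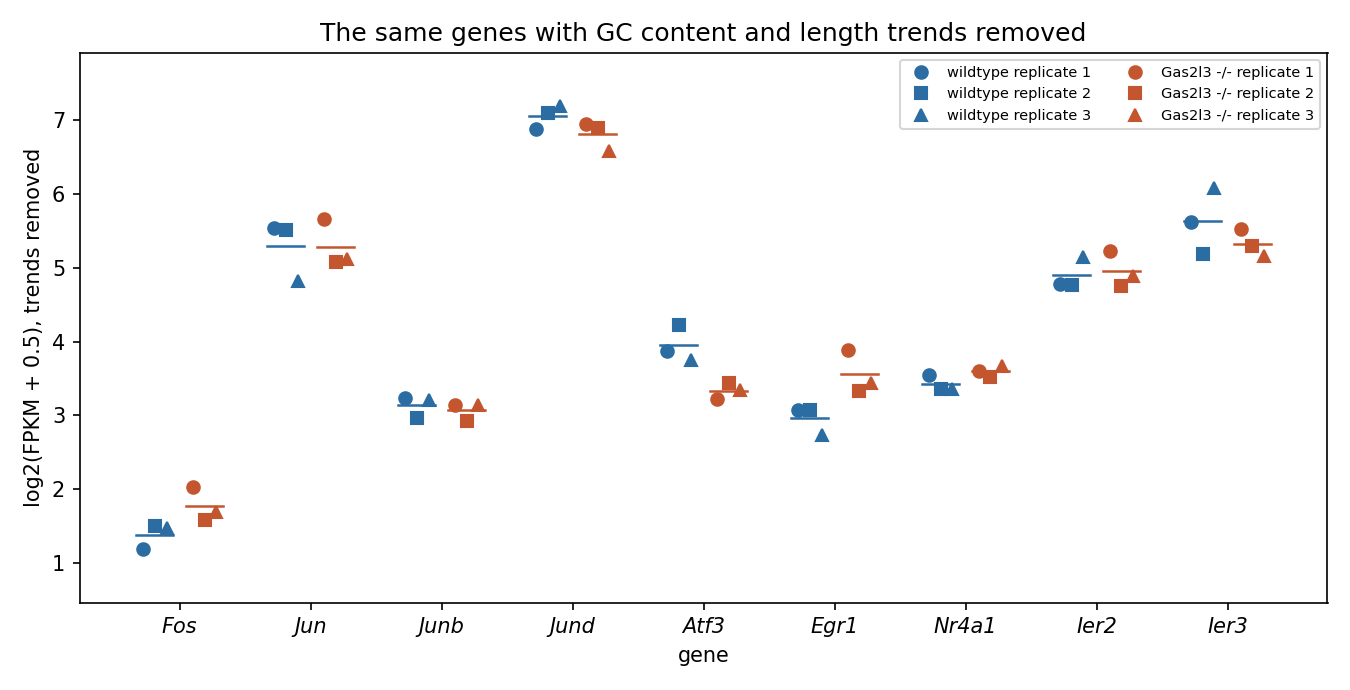
Levels of the 9 tested genes on the log2(FPKM + 0.5) scale after trends on GC content and length were removed from each library, with colours and shapes for groups and replicates and a line at each group mean. Atf3 is lower and Egr1 and Fos are higher in each knockout library than in each wildtype one, and WT3 no longer stands out for Junb, Jund or Ier2.

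With the trends removed, the groups did not overlap for 3 of the 9 genes, Atf3 lower and Egr1 and Fos higher, beside 8.44% of genes lower and 6.64% higher in that setting. As deposited it was 1 of 9, beside 4.74% lower and 5.02% higher. The ratio of Egr1 to Atf3 within a library was taken from the values as deposited only. It was 0.522, 0.411 and 0.656 in WT1, WT2 and WT3 and 1.60, 0.829 and 1.02 in KO1, KO2 and KO3. These ratios did not overlap between the groups. They were chosen after the values were seen, from genes that differed in opposite directions. Their separation therefore adds no support, and they carry no test. None of the 3 genes was called with trends removed, where 0.00829% of 12067 genes were called lower and 0% higher by limma. Unadjusted, Atf3 and Egr1 had a p under 0.05 in that setting, 2 of 9, beside 4.03% of genes lower and 3.86% higher.

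**Figure D4:**
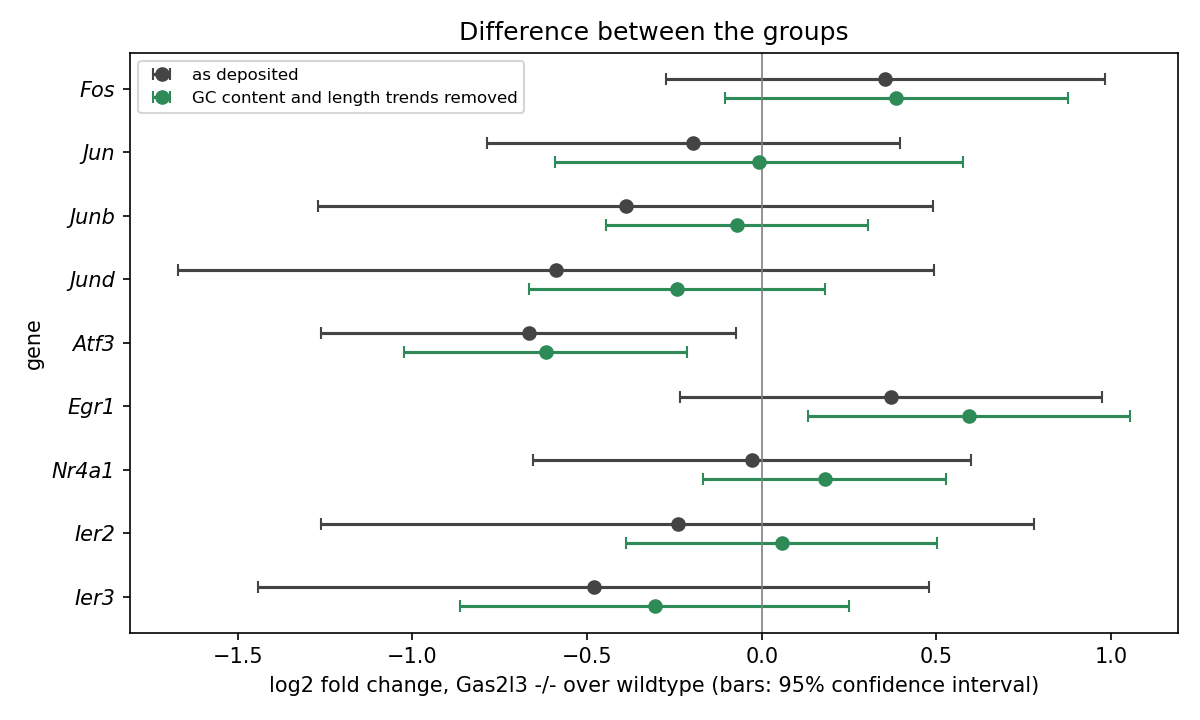
Log2 fold change of the 9 tested genes, knockout over wildtype, with 95% confidence intervals from limma, as deposited (dark grey) and with GC content and length trends removed (green). Atf3 lies below 0 in both, Egr1 clears 0 only with trends removed, and the intervals of Junb, Jund and Ier2 shrink.

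Spread between libraries of a group fell into 2 classes. Jund, Ier2, Ier3 and Junb had SDs within groups of 0.71, 0.69, 0.62 and 0.57 on the log2 scale, which 11.2%, 12.5%, 17.9% and 23.4% of tested genes matched or passed. Nr4a1 (0.31), Egr1 (0.28), Atf3 (0.26), Fos (0.26) and Jun (0.20) lay below the median of all tested genes, 0.40. Counting error was small beside the first class: for Jund it gives an SD of 0.034, and the observed SD was 20.9 times that. For Ier2 the factor was 7.42, for Ier3 7.003 and for Junb 3.78. In the second class it was 3.70 for Jun, 2.73 for Nr4a1, 2.51 for Egr1, 2.16 for Atf3 and 1.15 for Fos. Junb and Jun were thus nearly alike in this factor. With trends removed, Jund came to 0.18, Junb to 0.14 and Ier2 to 0.23, beside a median of 0.27 for all genes, and Ier3 to 0.34. Averaged over the 9 genes, the level in WT1, WT2 and WT3 was 3.83, 4.20 and 4.85 on the log2 scale as deposited, and 4.19, 4.19 and 4.20 with trends removed. For KO1, KO2 and KO3 the same averages were 4.13, 4.14 and 3.99, and 4.36, 4.09 and 4.12.

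**Figure D5:**
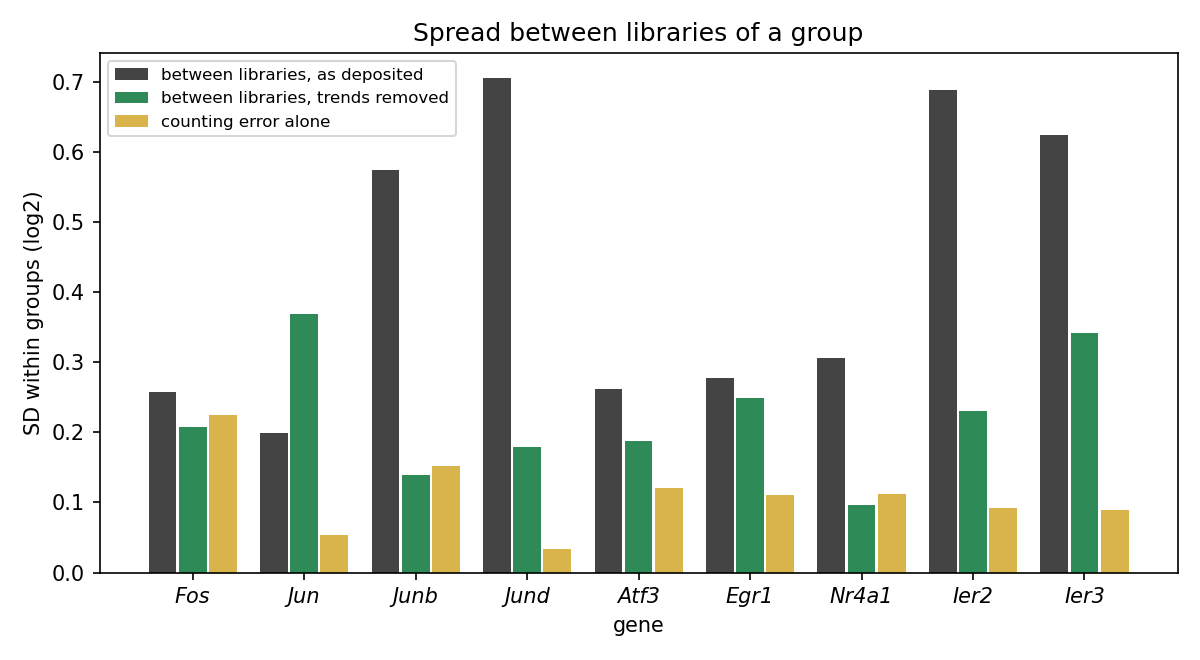
SD within groups on the log2 scale for the 9 tested genes, as deposited (dark), with trends removed (green) and as counting reads alone would give (yellow). Jund, Ier2, Ier3 and Junb have the widest spread as deposited, 0.57 to 0.71, and for Fos counting error alone, 0.22, comes near the spread observed, 0.26.

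Relatives of these genes outside the 10 were described by count, beside a median log2 fold change of -0.0089 over all tested genes. Of the 13 tested AP-1 relatives and partners, 10 had higher and 3 lower means in the knockout libraries, with a median of 0.092 (0.23 without WT3, 0.28 with trends removed), and 0 were called. Mafg, a small MAF protein, was at 10.5 ± 2.58 and 14.5 ± 0.559 FPKM (SD, n = 3) and Fosl2, a FOS relative, at 5.39 ± 0.933 and 7.16 ± 0.366 FPKM in wildtype and knockout libraries, both without overlap, 2 of 13 beside 5.02% of all tested genes. Their log2 fold changes were 0.47 (SE 0.26) and 0.39 (SE 0.23), each with an adjusted p of 0.966 by limma. Without WT3 they were at 0.49 and 0.28. Maf was at 0.40 (SE 0.29), or 0.23 without WT3, and Mafk at 0.27 (SE 0.29), or 0.39. Of 7 EGR and NR4A relatives only 3 were tested: Nab2, a co-repressor of EGR proteins, at -0.40 (SE 0.32), Nr4a2 at -0.26 (SE 0.31) and Nab1 at 0.19 (SE 0.28). Without WT3 these were -0.081, -0.28 and -0.068, so Nab1 turned in direction. Egr4 was listed at 0 in each library. Ier3ip1 was at 0.68 (SE 0.45), Ier5l at -0.49 (SE 0.51) and Ier5 at -0.035 (SE 0.24). Without WT3 they were at 0.26, 0.11 and 0.095, so Ier5l and Ier5 turned in direction.

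Other primary response genes, 39 of 41 tested, had 20 higher and 19 lower means as deposited, a median of 1.74e-04 and 0 called. Without WT3, 27 were higher and 12 lower (median 0.14), and with trends removed 26 and 13 (median 0.12). The groups did not overlap for 6 of the 39 higher and 3 lower, beside 5.02% and 4.74% of all tested genes. Phlda1, which is induced by growth factors and restrains survival signals, stood at 16.9, 23.2 and 19.0 FPKM in WT1, WT2 and WT3 and at 35.2, 37.3 and 40.4 FPKM in KO1, KO2 and KO3. The groups lay well apart, by 0.93 on the log2 scale (SE 0.25; limma adjusted p = 0.966), or 1.18 (SE 0.30, adjusted p = 0.371) with trends removed. Cyr61 and Ctgf, secreted matricellular proteins and targets of SRF and YAP, were at 0.73 (SE 0.25) and 0.75 (SE 0.27), without overlap. Nfil3, a bZIP repressor, had lower values without overlap. It was at 20.3, 24.5 and 33.5 FPKM against 15.5, 16.5 and 16.2 FPKM, which gave -0.65 on the log2 scale (SE 0.26; limma adjusted p = 0.966). For Nfil3 this was -0.46 without WT3 and -0.50 with trends removed. Phlda1, Cyr61 and Ctgf were at 0.91, 0.80 and 0.72 without WT3.

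Upstream of the early genes, the 18 factors and cofactors (SRF, ELK, CREB, MEF2 and STAT3 among them) had 4 higher and 14 lower means and a median of -0.16, with 0 called. Without WT3, 6 were higher and 12 lower, with a median of -0.053. Mef2d, a MADS-box factor of muscle, was at -0.50 (SE 0.29), or -0.25 without WT3, and Myocd, the SRF cofactor of heart and smooth muscle, at -0.38 (SE 0.25), or -0.44. Both were lower without overlap, 2 of 18 beside 4.74% of all tested genes. Crem was at 0.62 (SE 0.37), or 0.25 without WT3, and Elk1 at -0.39 (SE 0.32), or -0.085.

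Among 23 tested kinases of the MAP kinase pathway, 8 means were higher and 15 lower (median -0.15), with 0 called. Without WT3, 11 were higher and 12 lower (median -2.32e-04), and with trends removed 10 and 13 (median -0.040). The groups did not overlap for 2 higher, Rps6ka2 and Map2k1, and 2 lower, Map2k7 among them, beside 5.02% and 4.74% of all tested genes. Map2k7 is named after its values were seen. Rps6ka2, an ERK-activated kinase, was at 0.56 (SE 0.29), or 0.71 without WT3, and Map2k1, the kinase that activates ERK, at 0.43 (SE 0.30), or 0.18. Rps6ka5 was at -0.55 (SE 0.31), or -0.60 without WT3, and Map2k5 at -0.40 (SE 0.30), or -0.21.

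Downstream, 14 of 18 textbook AP-1 targets were tested, with 11 higher and 3 lower means (median 0.29; 0.45 without WT3) and 0 called. Ccl2, a chemokine that draws monocytes, was at 5.11 ± 3.63 and 11.1 ± 4.18 FPKM (SD, n = 3), with overlap between the groups and a difference of 1.16 on the log2 scale (SE 0.45, adjusted p = 0.966, limma). Spp1 was at 1.21 (SE 0.63), Vegfa at 0.75 (SE 0.50, or 0.30 without WT3) and Cd44 at 0.34 (SE 0.26). Ccl2, Spp1 and Cd44 were at 0.93, 1.25 and 0.33 without WT3.

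Markers of handling and of other cells are given beside these values, and their part in them was not tested. Heat shock genes, 10 of 12 tested, had summed levels of 1037 to 1343 FPKM in wildtype and 1044 to 1282 FPKM in knockout libraries, with 5 higher and 5 lower means, and 2 higher and 8 lower without WT3 and likewise with trends removed. Among them Hspb1 was at -0.57 (SE 0.38), Dnaja1 at 0.46 (SE 0.34), Hsf1 at -0.43 (SE 0.37) and Bag3 at -0.24 (SE 0.29). Without WT3 these were -0.25, 0.10, -0.048 and -0.017. Marker sums were not scaled to the library total, and FPKM summed over all genes was itself highest in WT3. That total was 429622, 600767 and 788996 in WT1, WT2 and WT3 and 456856, 630522 and 486744 in KO1, KO2 and KO3. Cardiomyocyte markers summed to 77010 FPKM in WT3, the highest of the 6, against 41080 and 52490 FPKM in the other wildtype libraries. Endothelial markers (10 of 10 tested) summed to 951 FPKM in WT3, against 398 and 412 FPKM in the other wildtype libraries and 487 to 586 FPKM in KO1, KO2 and KO3. Fibroblast markers (8 of 8) likewise summed to 1679 FPKM there, against 885 and 798 FPKM in the other wildtype libraries and 1113 to 1363 FPKM in KO1, KO2 and KO3, and smooth muscle and pericyte markers (8 of 8) to 821 FPKM, the highest of the 6. Means were higher in the knockout group for 5 of 10 endothelial and 6 of 8 fibroblast markers, and for 10 and 8 without WT3. Macrophage markers (9 of 10) ran from 64.6 to 155 FPKM in wildtype and from 103 to 158 FPKM in knockout libraries, with 7 of 9 means higher, and 9 without WT3. KO1, the library with the highest Fos, Jun and Egr1, also had the highest lung, liver and thymus sum and the highest erythroid sum (4 tested of 9 in the table). The erythroid sum was 147 FPKM against 41.5 to 74.3 FPKM in the other 5. Means of the 4 tested erythroid markers were all higher in the knockout group (median log2 fold change 0.40, or 0.19 without WT3). The 4 hemoglobin genes of the list read 0 in all 6 and add nothing to that sum. Why they read 0 was not tested. Neutrophil and mast cell markers (4 tested of 9 in the table) summed to 14.3 to 48.0 FPKM in wildtype and 31.7 to 72.7 FPKM in knockout libraries. Epicardial markers (7 of 7) summed to 89.1 to 179 against 130 to 145 FPKM. Lung, liver and thymus markers (2 of 10 tested) reached 1.17 to 11.6 against 1.17 to 13.2 FPKM, and neural and Schwann cell markers (0 of 8 tested) 2.41 to 3.28 against 3.41 to 4.04 FPKM. In whole hearts, fewer cells of a type and less RNA per cell cannot be told apart.

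Among the genes whose pattern over the 6 libraries was most like the mean of the 9 early genes were Mark4, Anapc2, Bcl6b and Tmcc2. Their correlations with that mean were 0.998, 0.994, 0.994 and 0.993 over 6 libraries, given as a description of shape that shares the libraries and their trends. Each had its highest value in WT3, as did 37.5% of all tested genes, and its lowest in WT1, as did 23.4%. For Mark4, a microtubule-affinity kinase of 60.6% GC content, the values were 14.8, 20.3 and 34.4 FPKM against 21.1, 19.6 and 18.1 FPKM.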

How the data were processed

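Total RNA of embryonic hearts was cleaned with a DNase step, poly(A) RNA was selected and libraries were amplified by 13 PCR cycles, per the labels' protocols. FastQC, DESeq2 and build mm10 are named in the submitters' processing notes, with no versions; aligner, counter, annotation and use of strand were not given in the sources used here. The authors deposited FPKM for each gene in each library and, separately, their own comparison, with a log2 fold change, p-value and adjusted p-value. Multiplied by the ratio of the deposited mean normalized count to mean FPKM and by size factors, 94235 of 94235 values above 0 came out as whole reads within 0.01, and size factors from those reads matched. Reads of 1 library cannot be told from PCR copies, so counting error is a lower limit.

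The main test was limma 3.58.1 (R 4.3.3) on log2(FPKM + 0.5) with an intensity trend, two-sided, on all 12121 genes with 1 FPKM or more in at least 3 libraries, with Benjamini-Hochberg adjustment and calls under 0.05. Fold changes on this scale understate low genes. Counting SD was computed from read numbers and put on the scale of the fit. For GC content the longest transcript per symbol in GENCODE M21 was taken (GRCm38, the build mm10), found for 12067 tested genes (99.5%), with older symbols matched through RefSeq GRCm38.p6 synonyms. Trends were removed per library by loess (span 0.3), first on GC content, then on effective length, taken as reads per unit of FPKM. The code of the test was run on simulated counts with known changes, drawn without GC content or length trends. Because the libraries hold such trends, that run does not measure power or error here.

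The early genes and lists were chosen with earlier results of these data known. Named were the early genes, Gas2l3, of each non-marker list up to 4 genes with the smallest p, and the 5 genes most like the early genes (no predicted genes or small RNAs), of which 1 is not reported here. Whether equal replicate numbers pair libraries was checked: deviations from group means correlated at 0.472, 0.443 and 0.1855 for libraries of 1 number (0.275, 0.387 and 0.116 with trends removed), each above 0.1. For libraries of unequal numbers the correlations ran from -0.396 to 0.0716 (-0.323 to 0.00487 with trends removed). Deviations within a group are tied to each other through its mean, so these correlations are weak ground for pairs. The main test was unpaired and ignored the replicate numbers. Only the replicate block among the alternatives below treated them as pairs, on that ground alone. No label ties them to a litter or day.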

Additional observations from a re-analysis of the deposited data

How the results depend on the processing

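Over 19 alternatives, 0 of the early genes was called in any, and Atf3 stayed lower and Egr1 and Fos higher wherever they were tested. Log2 fold changes of Atf3 ran from -0.82 to -0.49 (adjusted p from 0.301 to 0.9999), of Egr1 from 0.23 to 0.59 (0.367 to 0.9999) and of Fos from 0.16 to 0.51 (0.542 to 0.9999), all by limma. Fos had no value with a mean of 5 FPKM required. Ier2 turned positive with trends removed (0.057, also with the replicate block), and without wildtype replicate 3 (0.29), where Junb was at 0.068. Nr4a1 turned positive with a common total (0.14), quantile normalization (0.0084), trends removed (0.18, also with the replicate block), library weights (0.18), without wildtype replicate 3 (0.21) and without Gas2l3 -/- replicate 1 (0.020). A common total moved the median of all genes to 0.15, so relative to it Nr4a1 did not rise. The ends of -0.49 for Atf3 and 0.51 for Fos came from that setting as well and hold the same shift. Genes called over the whole table were 0 with each library left out in turn, 1 with trends removed and 2 with library weights; the cause was not tested. Weights came from the gene-by-gene method, since the default did not converge, and gave wildtype replicate 3 the least, 0.160. The replicate block on the values as deposited changed no call. With trends removed it ended the 1 call over the whole table (0 genes), and Atf3 was then at an adjusted p of 0.302. The mean log2 difference over the 9 genes was -0.21 as deposited and ran from -0.44 to 0.071 with 1 library left out. Their median SD within groups, 0.31 as deposited, ran from 0.23 to 0.35 with 1 library left out, and was 0.21 with trends removed and 0.44 with a mean of 5 FPKM required; weighted fits and voom give it on another scale and were left out. Depth limits Fos and Fosb most among the 10, at 5 to 44 reads per library. With 1 library left out in turn, Ier2 ran from -0.66 to 0.29, Junb from -0.70 to 0.068, Nr4a1 from -0.17 to 0.21, Jund from -1.01 to -0.080, Ier3 from -0.77 to -7.13e-04 and Jun from -0.35 to -0.10.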
